A study of Mus musculus with 24 samples.

Results

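Exon-level probe sets whose signal, relative to that of their gene, set adult mouse hearts apart from every earlier stage are described here. A probe set is a small group of array probes that mostly covers 1 exon or part of it, and a transcript cluster is the larger unit that stands for a gene. For each probe set with 1 gene symbol, an index was taken as its log2 signal minus the log2 level of its gene on the same array. The gene level was the symbol's transcript cluster with the highest mean, and it had to be at least 7 on all 12 arrays. A probe set was kept where both adult indices lay above, or both below, all 10 others and the adult mean differed from the mean of the 10 by 2 or more on the log2 scale. Of 241576 probe sets, 48049 in 3619 genes could be judged this way and 1875 in 1106 genes were kept. In 803 of them the adult index was above the others (called above in what follows) and in 1072 it was below (called below). The members were thus selected on their adult index differences, which are given as a description, with no test.

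The series measured total RNA from mouse embryonic stem cells (ES, culture day 0), embryonic bodies (EB, day 7), cardiac bodies (CB, day 14), and whole hearts at embryonic stage E17.5, postnatal day 1 (P1) and adulthood. Each of the 6 groups had 2 arrays, whose values were deposited once by exon and once by gene. The cultures were differentiated toward cardiomyocytes in serum-containing medium, and ribosomal RNA was depleted from the RNA of all groups before amplification. Strain, sex and adult age are not given in the labels, nor is whether replicates were separate cultures or animals, so p-values measure only the spread between these arrays.

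Most multi-exon genes can make several mRNAs, by alternative splicing or by starting or ending transcription at different places. The heart is known for exchanging protein isoforms around birth, under RNA-binding proteins such as those of the CELF, MBNL, RBFOX and SR families. On an exon array such an exchange appears as a probe set that departs from the rest of its gene. A dim or cross-hybridizing probe set can depart as well.

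Array medians ranged from 6.40 to 6.53 log2 units at exon level and from 5.61 to 5.76 at gene level, and indices of replicate arrays correlated across probe sets at r = 0.909 to 0.940. The number of arrays, and not a count of reads, limits the precision. The 10 cardiomyocyte markers had a median level of 12.52 in adult hearts, 12.92 at P1, 12.35 at E17.5 and 11.50 in cardiac bodies, against 5.51 in ES cells, so the heart labels fit their markers. The 10 pluripotency markers still had a median of 9.59 in cardiac bodies. In adult hearts the summed level of 10 macrophage and leukocyte markers was 11.54 to 11.83, against 9.21 to 9.42 at P1. The summed level of 10 fibroblast and matrix markers was 13.31 to 13.69 against 13.79 to 14.13, and their median 8.30 against 10.40. In whole tissue, fewer cells of a type and less RNA per cell cannot be told apart. The part of these marker differences in the results below was not tested.

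Applied to any other group, the same rule found few probe sets. In the adult group it kept 3.9% of the eligible probe sets, 1.67% above and 2.23% below. It kept 155 for E17.5 hearts (0.323%), of which 142 were below (0.296%), 75 for ES cells (0.156%), 62 for embryonic bodies (0.129%), 48 for P1 hearts (0.0999%) and 27 for cardiac bodies (0.0562%). Without the size limit, both adult arrays lay outside the other 10 for 36.9% of eligible probe sets, against 2.08% to 6.94% for the other groups. Deviations of the index from its mean over the 10 non-adult arrays spread wider on the adult arrays. Their quartiles over all eligible probe sets were -0.46 and 0.51 on adult replicate 1 and -0.46 and 0.50 on adult replicate 2. The quartile farthest from 0 on any other array was -0.27, on E17.5 replicate 2. Each non-adult array is part of that mean and the adult arrays are not, so these spreads are not fully alike. The labels mark adult samples with a different tissue tag, and their growth protocol names only the E17.5 and P1 hearts. They give no scan date, so adult age and any difference in strain or array batch cannot be told apart.

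**Figure D1:**
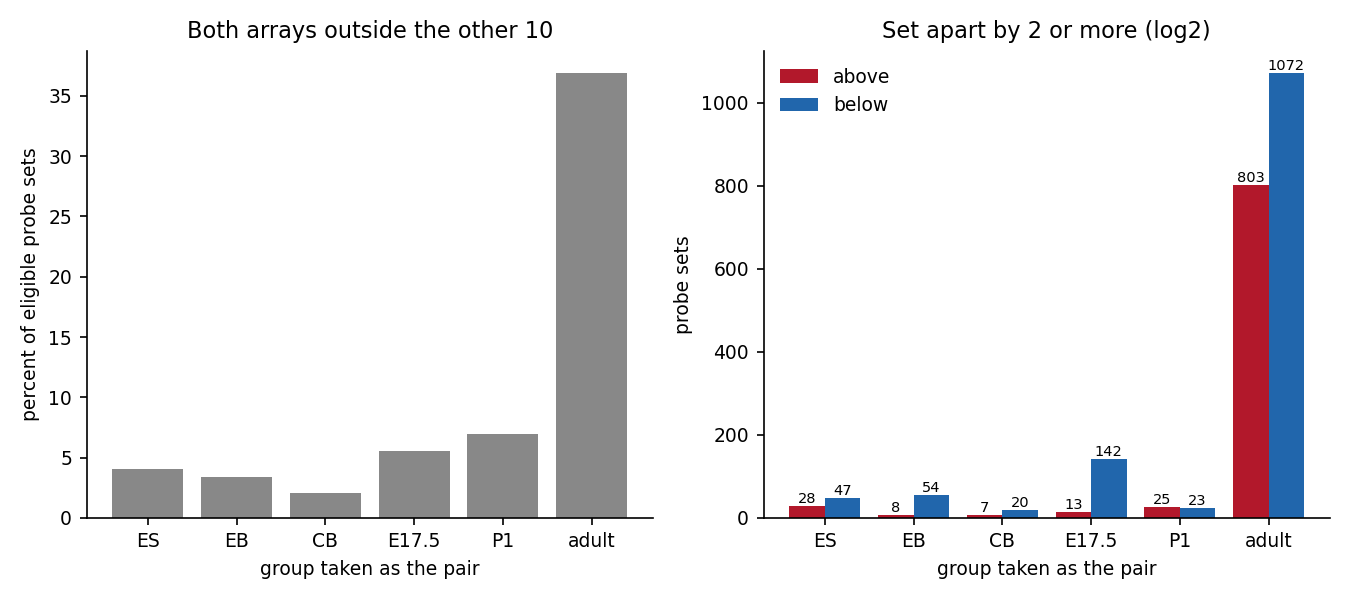
Left, the percent of 48049 eligible probe sets (y axis) whose index on both arrays of a group (x axis) lay outside the other 10 arrays, with no size limit. Right, the number of probe sets (y axis) also set apart by 2 or more on the log2 scale, above in red and below in blue; adult hearts had 803 and 1072, and the next highest bar was 142 below for E17.5.

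In the members below, the probe set itself was dim in adult hearts. Their median signal was 5.49 in adult hearts and 8.29 over the other 10 arrays, while the median gene level was 8.59 in both. In 722 of the 1072, the adult signal was under the adult median of all exon-level features, 6.41. In the members above, the median signal was 9.01 in adult hearts and 6.93 elsewhere, while the gene level was 8.22 against 8.67. In 316 of the 803, the mean signal on the other 10 arrays was under their median of 6.47. No detection call was used here, so where the lower side is dim it may be at background, and the size and rank of such a difference are not settled. The probe set moved more than the gene in 633 of 803 members above (78.8%) and in 941 of 1072 below (87.8%). In the remaining 170 and 131 the gene moved more, so that the index changed around a probe set that changed less.

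**Figure D2:**
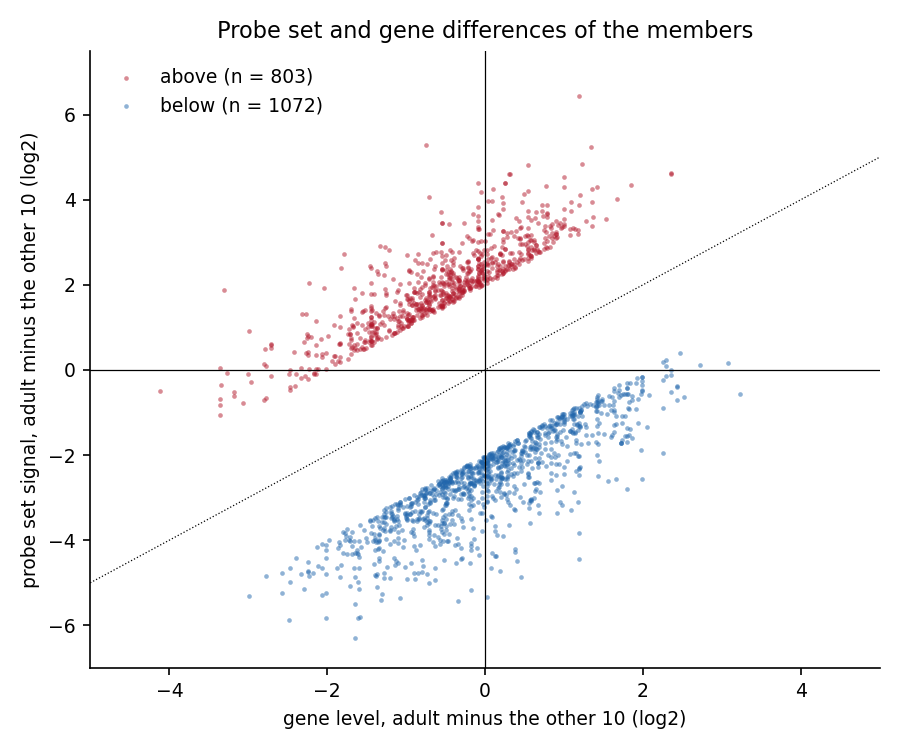
Each point is 1 member, with the adult minus other difference of its gene level (x axis) and of its own signal (y axis), both in log2 units; the dotted line marks equal differences, and the rule removes the band within 2 of it. Members above (red, n = 803) centred on a probe set difference of 2.02 with a gene difference of -0.49, and members below (blue, n = 1072) on -2.57 with 0.02.

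The median adult difference was 2.43 above and -2.46 below. It reached at least 3 in 133 members above and 233 below, and at least 4 in 21 and 45. Both adult arrays were alike for the members above, with a median difference of 0.27 between them, close to the 0.25 of all eligible probe sets. For the members below the arrays differed by a median of 0.71. With 1 adult array left out, the difference moved by more than 1.5 times in 7 members above and in 184 below, and it came under 2 in 199 and 472. The gap between the nearer adult array and the closest other array was at least 1 in 540 members above and 768 below. P1 arrays supplied that closest array most often, in 287 of the members above and 321 of those below. Of the members above, 594 also differed by 2 or more from the mean of the 4 E17.5 and P1 arrays alone, and 30 by less than 1. Of the members below, 889 did so, and 1 differed by less than 1.

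**Figure D3:**
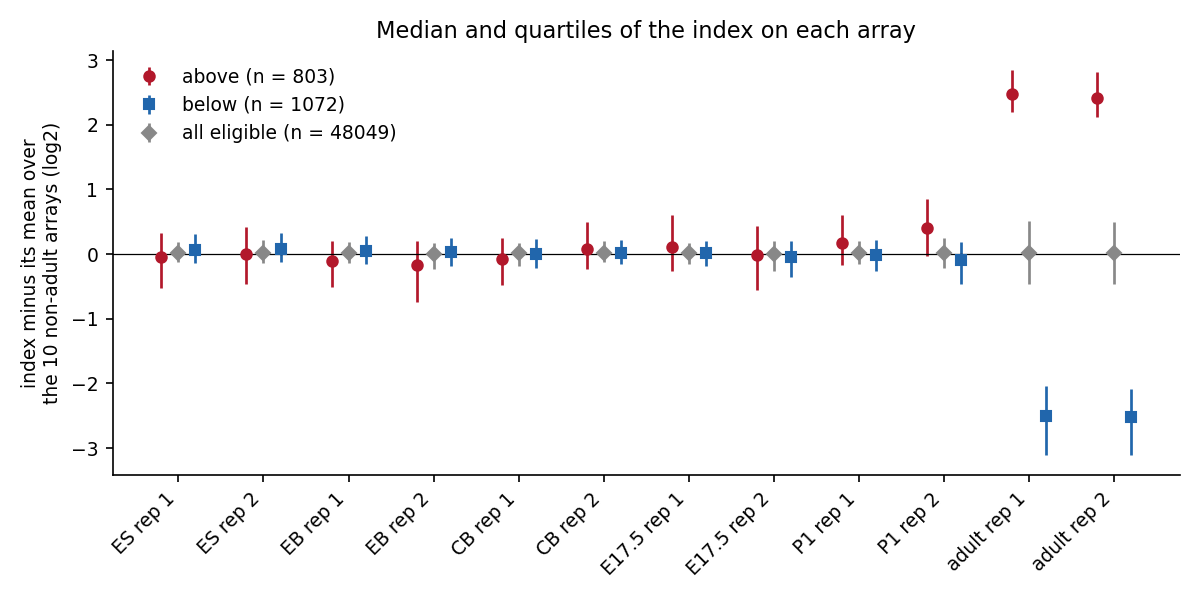
Points are the median, and bars the quartiles, of the index minus its mean over the 10 non-adult arrays (y axis, log2) on each of the 12 arrays (x axis), for members above (red circles, n = 803), members below (blue squares, n = 1072) and all eligible probe sets (grey diamonds, n = 48049). Adult medians were 2.48 and 2.41 above and -2.50 and -2.52 below, while the other 10 arrays had medians between -0.17 and 0.40.

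Values ran smoothly through the limit of 2. The 3 members just inside it above were in Hnrnpl (difference 2.001), Hsd17b4 (2.001) and Jmjd1c (2.003), and the 3 just outside were in Exoc4, Ankrd28 and Smarca4, between 1.998 and 2.000. Below, Ints7, Snd1 and Kif2a lay just inside at -2.000 to -2.001, and Rsrp1, Eif3h and Srcap just outside at -1.998 to -1.999.

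By its printed value the greatest adult difference above lay in Rbm5, an RNA-binding protein that regulates splicing. Probe set 10596787 measured 8.44 and 8.20 in adult hearts and from 1.82 to 4.84 on the other 10 arrays, with a median of 2.88. The Rbm5 gene level was 8.31 and 8.29 in adult hearts and 8.60 to 9.51 elsewhere, so the probe set stood near its gene in adult hearts and far under it elsewhere. Its adult difference was 6.04, taken against signals far under the exon-level median, and its neighbours on both sides, 10596786 and 10596788, were also above, at 2.34 and 2.10. In Dst, which encodes a plakin that links cytoskeletal filaments and is known for tissue-specific forms, probe set 10345256 measured 11.34 and 11.10 in adult hearts and 2.90 to 6.28 elsewhere. The highest of those other signals came from E17.5 hearts. In Eif4g2, a translation initiation factor, probe set 10566992 stood at 11.40 and 11.06 in adult hearts and at 6.59 to 7.61 elsewhere, with no overlap, and the gene at 10.87 and 10.76 against 10.97 to 11.78. In Plekha5, probe set 10542538 measured 7.49 and 6.78 against 1.64 to 4.82.

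The other genes with the greatest differences above were Hnrnpf (5.18), Rbm45 (4.52), Myo18b (4.47), Dhx15 (4.29), Tut7 (4.28), Ptprs (4.27), Heatr5b (4.26) and Washc2 (4.23), all as adult index differences. Hnrnpf, Rbm45 and Dhx15 encode RNA-binding proteins or helicases, Tut7 adds uridines to RNA ends, Ptprs is a receptor phosphatase and Washc2 belongs to an endosomal actin-nucleating complex. The Hnrnpf difference was mainly one of the gene: its level was 3.31 lower in adult hearts than elsewhere, while probe set 10541105 was 1.87 higher, and the symbol has 4 clusters. In Dhx15, a helicase of the spliceosome, the gene level went from a mean of 9.5 at P1 to 8.3 in adult hearts while probe set 10530012 went from 5.6 to 6.5. Part of its difference therefore came from the gene level.

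By its printed value the greatest difference below was also in Dst. Probe set 10345280 measured 2.46 and 2.44 in adult hearts and 4.89 to 8.36 on the other 10 arrays, with a median of 7.05, although the Dst gene level was higher in adult hearts (9.65 and 9.50) than on any other array (7.91 to 9.36). Its 2 preceding neighbours, 10345278 and 10345279, were below as well, at -3.21 and -3.52. The second rested on 1 array, being -1.45 without adult replicate 1 and -5.59 without adult replicate 2. The adult signals of 10345280 were far under the exon-level median of 6.41, so its size of -5.63 is not settled. Of 107 eligible Dst probe sets, 7 were members, 2 above and 5 below. In Arpc5, a subunit of the Arp2/3 complex that nucleates actin branches, the most 5′ of 4 probe sets (10350685) measured 7.79 and 7.80 in adult hearts and 11.99 to 13.05 elsewhere. The Arpc5 gene level was 9.40 and 9.65 in adult hearts, inside the 8.44 to 9.64 of the others but for the higher array.

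Tcf20, a transcriptional coregulator, and Elac2, which trims tRNA precursors, had probe sets that were among the dimmest in adult hearts and not elsewhere. The Tcf20 probe set (10430921) measured 2.30 and 1.95 against 6.16 to 8.34, and the Elac2 probe set (10376974) 1.92 and 1.81 against 5.42 to 8.79. Neither overlapped the other groups, and the sizes of both differences depend on signals that may be at background. The other genes with the greatest differences below were Gas5 (-4.98), Eif3l (-4.90), Map4k5 (-4.89), Abi2 (-4.72), Piezo1 (-4.66), Dnajc7 (-4.65), Cnot4 (-4.60) and Zfp706 (-4.54), again as adult index differences. Eif3l is a subunit of a translation initiation factor, Piezo1 a mechanically gated channel and Cnot4 a ubiquitin ligase of the CCR4-NOT deadenylase complex.

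Few contractile genes could be judged, since most were below 7 in ES cells. Of a list of 60 genes known for alternative splicing in the heart, 23 were eligible with 610 probe sets. Of these probe sets, 33 (5.41%) in 12 genes were members, 12 above and 21 below. Over all eligible features, 3.9% of probe sets were members and 30.6% of genes had members. The median adult difference over those 610 probe sets was 0.05, against 0.01 over all 48049 eligible ones. Only 2 genes of the sarcomere and Z-disc list, Pdlim5 and Tpm1, were eligible with members, 8 of the list's 29 probe sets. The single eligible gene of calcium handling and ion channels had no member among its 20 probe sets. Members numbered 11 of 317 probe sets for the citrate cycle and oxidative phosphorylation (3.47%). For fatty acid oxidation they numbered 3 of 155 (1.94%), against 3.9% of all eligible probe sets.

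Pdlim5 encodes a Z-disc protein with an N-terminal PDZ domain, and its long forms carry C-terminal LIM domains that short forms lack. Of its 12 probe sets, counted from the 5′ end, numbers 8 to 12 and number 6 were below and number 5 was above. Probe set number 5 (10502477) measured 10.23 and 9.46 in adult hearts, 8.0 and 7.45 at P1, 7.01 and 6.29 at E17.5, 4.98 and 6.11 in cardiac bodies, and 3.52 to 4.50 in ES cells and embryonic bodies. It was highest in adult hearts without overlap, and P1 hearts came next. Number 8 (10502474) measured 7.99 and 6.95 in adult hearts, 10.53 and 9.49 at P1, 10.62 and 10.51 at E17.5, and 8.40 to 9.47 in the cultures. Number 12 (10502470) measured 8.97 and 8.64 in adult hearts and 10.26 to 11.44 at E17.5 and P1.

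The 5′ probe sets of Pdlim5 did not follow. Number 3 (10502479) measured 11.87 and 11.53 in adult hearts and 11.10 to 11.55 at E17.5 and P1, in step with the gene level of 11.42 and 11.22 against 10.79 to 11.34. In adult hearts numbers 8 and 12 were thus below even their ES cell signals, which were 8.58 and 8.52 for number 8 and 9.11 and 9.18 for number 12, while the 5′ part was at the level of young hearts. Because 6 of 12 probe sets were below, the reference matters here. Against the median of the other probe sets, number 5 differed by 5.08 and the members below by -0.24 to -1.56, so only number 5 kept the rule.

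**Figure D4:**
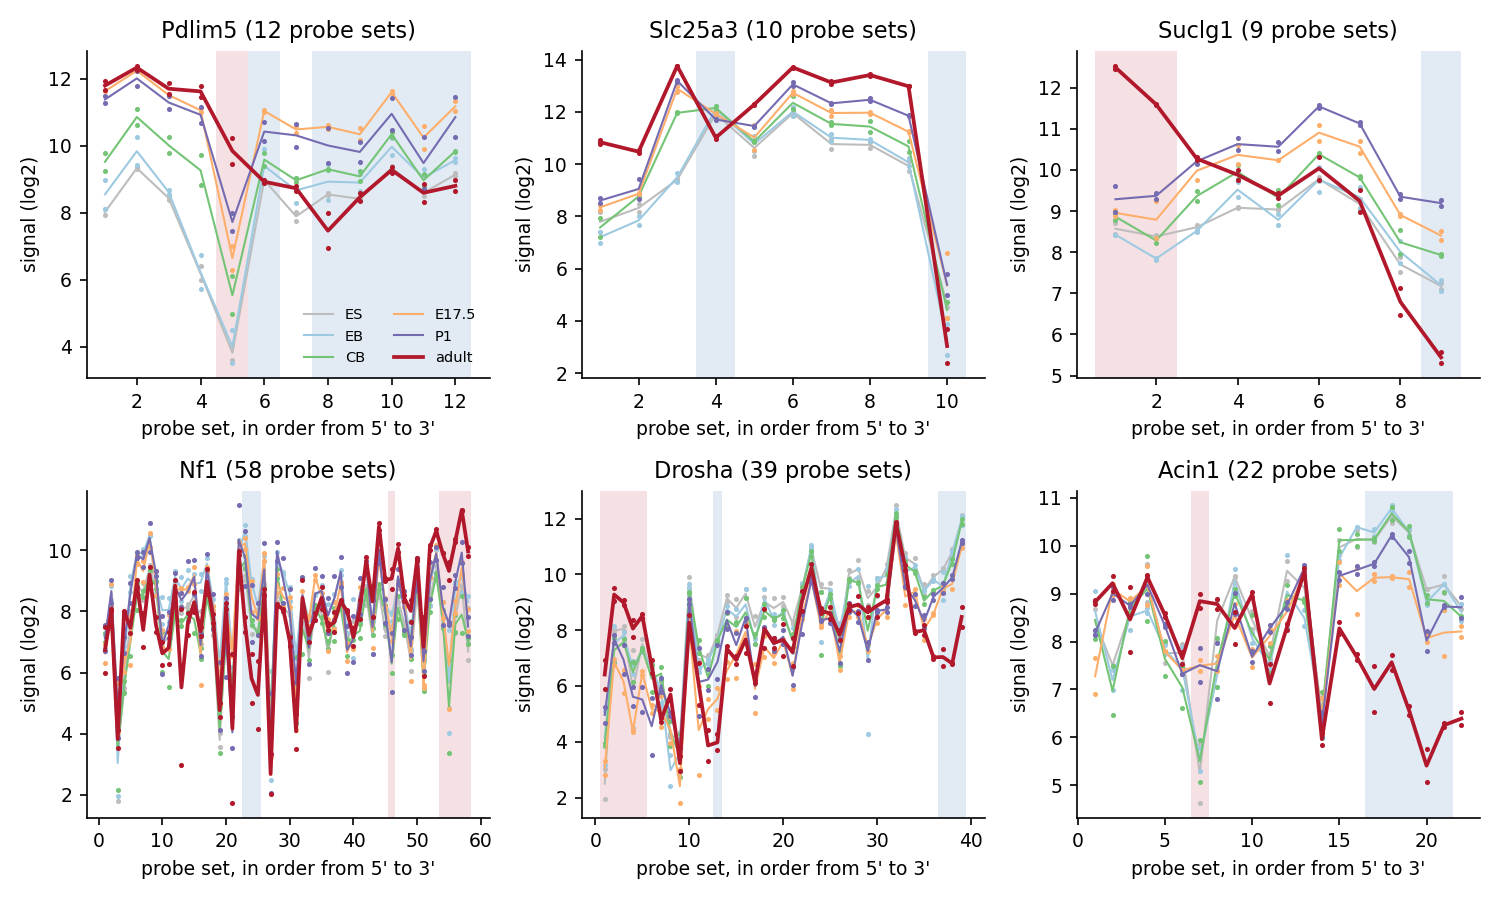
Signal (y axis, log2) of every eligible probe set in order from 5′ to 3′ (x axis) for 6 genes with 1 transcript cluster; lines join group means of 2 arrays, dots are arrays, and shading marks members above (red) or below (blue). In Pdlim5 the adult line left that of young hearts from number 5 onward, in Suclg1 it crossed from above to below along the gene, and in Drosha and Acin1 it lay below all others near the 3′ end.

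Slc25a3 encodes the mitochondrial phosphate carrier, which uses mutually exclusive exons, with one form in heart and skeletal muscle and another elsewhere. Probe set 10371884, number 4 of 10 from the 5′ end, measured 10.96 and 11.06 in adult hearts and 11.69 to 12.23 on the other 10 arrays. The gene level was higher in later groups, from 10.27 to 10.74 in ES cells and embryonic bodies to 11.90 and 11.94 at P1 and 12.75 and 12.68 in adult hearts. The adult index difference of 10371884 was -2.546, and -1.795 against the E17.5 and P1 arrays alone. Part of it therefore came from the gene level. The neighbouring probe set number 3 (10371885), which was no member, measured 9.33 to 9.65 in ES cells and embryonic bodies, 11.98 and 11.94 in cardiac bodies, 12.77 to 13.21 in young hearts and 13.77 and 13.74 in adult hearts. The 2 neighbours thus moved in opposite directions from ES cells to adult hearts. The other Slc25a3 member, 10371878 at the 3′ end, measured 3.69 and 2.39 in adult hearts and 2.68 to 6.59 elsewhere, so its signals overlapped and only its index did not.

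In Tpm1, an actin-binding tropomyosin with many known isoforms, the most 3′ probe set (10594662) measured 11.49 and 11.54 in embryonic bodies, 9.65 and 9.24 in cardiac bodies, 8.16 to 8.70 in young hearts, and 7.86 and 7.03 in adult hearts. The gene level was 11.43 to 12.63 in all groups but ES cells, where it was 8.13 and 8.32. The adult difference of -2.72 rested largely on ES cells and embryonic bodies, since against the 4 young heart arrays alone it was -0.83. In Ktn1, which encodes kinectin, probe set 10414395 likewise differed by 0.61 from young hearts alone and by 2.56 from all 10 arrays. The other 2 Ktn1 members kept differences of 2.43 and -2.77 against young hearts.

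Most of the remaining members of this list lay in cytoskeletal, junction and matrix genes. Macf1, a plakin related to Dst, had 3 members above, at 2.10 to 2.70, and Tjp1, a tight junction scaffold, 2 above at 2.03 and 2.33. Afdn, an adherens junction protein, and Cask, a membrane scaffold, had members on both sides. The Fn1 member (10355426) measured 5.32 and 4.39 in adult hearts and 7.88 to 11.40 elsewhere, while the fibronectin gene level was 8.81 and 9.26 against 9.99 to 11.89. Both the probe set and its gene were lowest in adult hearts, with no overlap. The 2 others were single members below, in Ap2a1 (-2.26), an endocytic adaptor subunit, and in Ppp3ca (-2.20), the catalytic subunit of calcineurin. The Ap2a1 difference was -1.46 without adult replicate 2.

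Of 28 eligible splicing regulators, 18 had members, 30 of 376 probe sets (7.98%), 11 above and 19 below. Among all eligible genes 30.6% had members, and among all eligible probe sets 3.9% were members. The Qk probe sets 10447724 and 10447726, counted separately here, had the same adult difference (-2.15). The median adult difference over the 376 was 0.03. Several of these genes were themselves lower in adult hearts. Srsf1, an SR protein, had a gene level of 8.26 and 8.12 in adult hearts and 9.40 to 11.39 elsewhere, and its probe set 10380216 was lower still, at 6.13 and 6.70 against 10.93 to 12.40. The gene level of Hnrnph1, which binds G-rich RNA, was 8.22 and 8.0 against 9.48 to 12.20, while its probe set 10375737 was 8.49 and 8.19 against 8.52 to 9.52. Its adult difference of 2.57 therefore came from the gene level. The Hnrnpm members at 2.10 and 2.93 showed the same pattern, with group mean signals of 11.1 and 5.3 in adult hearts and 11.7 and 5.3 at P1 around a gene level that went from 10.3 to 8.4.

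In Sf1, which recognizes the branch point of introns, the gene level did not move apart, at 9.53 and 9.68 in adult hearts and 8.79 to 9.65 elsewhere. Its probe set 10460946 measured 6.84 and 7.31 in adult hearts and 10.05 to 10.62 elsewhere, and 10460943 measured 9.93 and 10.40 against 6.64 to 8.59. One was thus low and the other high in adult hearts, each without overlap. The Rbfox2 member (10430147) measured 5.22 and 4.57 against 7.49 to 8.49, the Celf1 member (10473782) 3.86 and 4.09 against 6.10 to 8.31, and the Tia1 member (10539725) 7.58 and 6.25 against 9.33 to 11.34. All 3 were below.

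Members lay next to each other in 1 gene in 199 runs of 2 or more, which held 482 members (25.7%). Of 294 neighbouring pairs in which both were members, 283 lay on the same side and 11 on opposite sides. Neighbouring probe sets share a transcript and are not independent. Of the 1106 genes, 702 had 1 member, 237 had 2 and 167 had 3 or more. Among the 404 genes with at least 2, 175 had members on both sides. There were 16 genes with 7 or more members. Those 16 and the genes with fewer members described next were picked after their values were seen. Runs of 3 or more in genes with 1 transcript cluster and known strand numbered 35, of which 11 reached the 3′ end (8 below, 3 above), 4 the 5′ end (1 below, 3 above) and 20 lay between (13 below, 7 above).

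The longest run was in Mtr, methionine synthase, where the 8 most 3′ of 32 probe sets were all above, by 2.08 to 3.30. Probe set 10407711 measured 9.62 and 9.67 in adult hearts and 7.03 to 8.55 elsewhere, while the Mtr gene level was 7.38 and 7.42 against 7.74 to 8.83. The 3′ part was brighter in adult hearts while the gene level was lower. Against the median of the other probe sets, 10407712, 10407713, 10407715 and 10407717 came under 2, at 1.844, 1.536, 1.538 and 1.403. The rest of the Mtr run stayed above 2, at 2.034 to 2.75. In Nf1, the RAS-inhibiting protein neurofibromin, the 5 most 3′ of 58 probe sets were above by 2.03 to 3.37, and numbers 23 to 25 were below by 2.22 to 2.34. Of these, 10379286 was at -1.27 without adult replicate 2 and 10379287 at -1.37 without adult replicate 1. The Nf1 gene level in adult hearts, 7.83 and 8.12, lay inside the range of the other arrays, 7.55 to 8.79.

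In Drosha, which cleaves primary microRNA transcripts, the direction along the gene was the opposite. The 5 most 5′ of 39 probe sets were above by 2.17 to 3.18 and the 3 most 3′ were below by 2.14 to 3.02. Probe set number 38 (10423223) measured 6.80 and 6.81 in adult hearts and 9.48 to 10.92 elsewhere, and number 2 (10423187) 9.06 and 9.49 against 6.76 to 8.14. In Acin1, a protein of the exon junction complex, numbers 17 to 21 of 22 were below by 2.06 to 2.90, and number 7 was above by 3.10. Against the E17.5 and P1 arrays alone, number 7 (10419841) was above by 1.67. In Sart1, a spliceosome component, the 4 most 5′ of 19 were below by 2.08 to 3.05 while the gene level was 9.17 and 8.91 against 7.24 to 8.66.

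Suclg1, a subunit of succinyl-CoA ligase in the citrate cycle, changed step by step along its length. From the 5′ end its 9 adult differences were 3.82, 3.21, 1.09, 0.13, -0.06, -0.28, -0.61, -1.50 and -2.38. Number 1 (10539160) measured 12.44 and 12.54 in adult hearts and 8.42 to 9.60 elsewhere, and number 9 (10539168) 5.30 and 5.58 against 7.06 to 9.26. The gene level of 9.34 and 9.45 lay inside the range of the others, 8.76 to 10.53. Ezh2, the catalytic subunit of Polycomb repressive complex 2, had numbers 18 to 20 of 21 below by 2.02 to 3.69. Its gene level went from a mean of 10.48 in ES cells to 8.23 at P1 and 8.40 in adult hearts. Dnmt1, the maintenance DNA methyltransferase, had 6 members below and 2 above among 42, and its probe set 10591373 measured 2.63 and 4.50 in adult hearts against 8.08 to 10.57. The Dnmt1 gene level was also lowest there, at 7.10 and 7.00 against 7.87 to 9.73. With 1 adult array left out, 3 of the Dnmt1 members, at -2.77, -2.21 and -2.10, came to -1.60, -0.60 and -0.96. Herc2, a ubiquitin ligase, had 5 members on each side among 94, and Hspg2, which encodes perlecan, 2 above and 5 below among 98.

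Zmynd8, a chromatin reader, had 8 members among 35 at a steady gene level, 8.37 and 8.27 in adult hearts against 7.80 to 9.02. Its numbers 23 to 25 were above by 2.05 to 3.43, and 5 others were below, from -2.09 to -4.38. Probe set 10489736 measured 9.30 and 9.35 in adult hearts against 2.80 to 8.11, and 10489728 measured 4.42 and 6.41 against 8.24 to 9.73. Against the E17.5 and P1 arrays alone, the adult difference of 10489736 was 1.36. Its index was already 3.46 higher on those arrays than in culture. Chd6, a chromatin remodeller, had 5 neighbouring members above, from 2.05 to 2.58, and 2 below. Heatr5b had 8 above, from 2.19 to 4.26, and 2 below at -2.70 and -3.05, the second at -1.45 without adult replicate 2. In Dlc1, 8 members were above by 2.20 to 4.01, although the signals of 10578236 and 10578248 overlapped those of other arrays. The highest value stood for both 10578240 and 10578245, whose differences were the same in every setting, so they are not separate measurements. Chd6, Heatr5b and Dlc1 each have 2 transcript clusters, and 5 of the Dlc1 members are numbered under the one that was not the reference.

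Some genes with many members owed them to the choice of gene reference. For 125 genes with several transcript clusters, which held 273 members, the cluster with the highest mean need not be the one that holds the probe set, and 184 of these members were numbered under another cluster. All 17 Myo18b members were above, yet that symbol had 20 clusters. The reference cluster changed little between groups, with means of 9.49 to 10.47. The other 19 clusters had means of 4.10 to 7.95 in ES cells and embryonic bodies and 7.53 to 10.70 in adult hearts. They were already at 8.02 to 10.25 in E17.5 hearts and 8.42 to 10.85 in P1 hearts. Against the E17.5 and P1 arrays alone, the Myo18b members differed by 0.315 to 2.849. For Hk1, hexokinase, with 15 members above, the reference cluster went from 12.42 at P1 to 11.14 in adult hearts, and the other cluster went from 10.10 to 9.34. The 8 Baiap2l1 members were measured against a cluster at 13.75 to 14.08 in all groups, and another cluster of that symbol went from 6.51 at P1 to 8.33 in adult hearts. For Gas5, a snoRNA host gene with 9 members below, the reference cluster was at 10.42 in adult hearts and the other 3 at 3.37 to 7.00, so these 9 followed clusters other than their reference.

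With genes of 1 transcript cluster only, 1602 members in 981 genes remained. Of all 1875, 1539 (82.1%) also met the rule against the median of the gene's other probe sets, and of 1849 that had such a value 1839 kept their sign. Both conditions held for 1389 members in 894 genes, 582 above and 807 below. A further 143 eligible probe sets had the values of their gene exactly, and 8 members shared their values with another member in 4 pairs.

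Members were more frequent among dim probe sets and at the ends of genes. By quintile of mean signal over all arrays, the share of members went from 8.34% in the dimmest (up to 7.29) through 4.16%, 2.99% and 2.12% to 1.90% in the brightest. Among genes with known strand, members made up 7.17% of the most 5′ probe sets, 9.38% of the most 3′ and 3.05% of those between. At the 3′ end more were below (6.46%) than above (2.92%), and at the 5′ end fewer (3.07% and 4.10%). By chromosome the share ran from 2.89% to 4.67%.

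A tilt of the index along the gene was measured in 1582 genes with 10 or more probe sets, as a rank correlation of at least 0.5 in size between position and the difference from the other arrays. In adult hearts 167 genes tilted toward higher 3′ signal (10.6%) and 309 toward higher 5′ signal (19.5%). In P1 hearts 465 tilted toward 3′ (29.4%) and 33 toward 5′ (2.09%), and in the other groups neither direction passed 12.5%. Of the 123 of these genes with 3 or more members, 40 tilted toward 5′ in adult hearts and 14 toward 3′. The part of this tilt in the members was not tested.

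Comparisons among the 10 non-adult arrays, whose direction the rule did not use, were tested with limma over all 48049 eligible probe sets. The rule still needs all 10 to lie on 1 side of the adult arrays, which limits how far the members can spread here. Calls needed a change of at least 1 on the log2 scale and an adjusted p, after Benjamini and Hochberg, under 0.05. Between P1 and E17.5 hearts no index change was called (0 of 48049, 0%). In simulated data this comparison found 12% of index changes of 1, 54% of those of 2 and 92% of those of 3. The lack of calls therefore does not show a lack of change. An unadjusted p under 0.05 was found for 5204 probe sets, among them 126 of 803 members above and 103 of 1072 below. The median index change of the members above was 0.22 from E17.5 to P1, and it was positive in 66.4% of them. For the members below it was -0.03, positive in 45.9%, and for all eligible probe sets it was 0.01, positive in 51.7%. Without E17.5 replicate 1, 124 changes were called, 6 of them in members.

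Between cardiac bodies and ES cells, limma called 19 changes (0.0395%) and none in a member. An unadjusted p under 0.05 was found for 96 of 803 members above and 57 of 1072 below. Over all 48049 eligible probe sets it was found for 2118. Between young hearts (E17.5 and P1 together, 4 arrays) and the 6 culture arrays, it called 1040 (2.16%), 1.41% higher and 0.755% lower in young hearts. Of the members above, 92 were called higher (11.5%) and 7 lower. Of the members below, 40 were called lower (3.73%) and 10 higher. In genes with 1 transcript cluster, 52 of 654 members above were called higher and 7 lower. Of the 948 members below in such genes, 31 were called lower and 4 higher. Over all 43355 probe sets of these genes, 510 were called higher and 312 lower. Quantile normalization moved the median index change of all probe sets from -0.01 to -0.17 and the calls from 677 higher and 363 lower to 560 and 877. With it, 86 members above were called higher and 28 lower, and 70 members below lower and 9 higher. Single arrays moved the lower calls by more than 1.5 times. Without E17.5 replicate 1 there were 794 lower and 656 higher, with 31 members above called lower and 84 higher. The lower calls numbered 221, 203 and 226 when the second array of E17.5, ES or CB was left out. Members below called lower were 25, 25 and 23 without ES replicate 2, E17.5 replicate 2 and P1 replicate 2. Over all 12 arrays left out, members above called lower ranged from 3 to 31. These calls share the culture and young heart arrays with the rule, which compares adult hearts with their mean, so they are given as values and not as support.

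**Figure D5:**
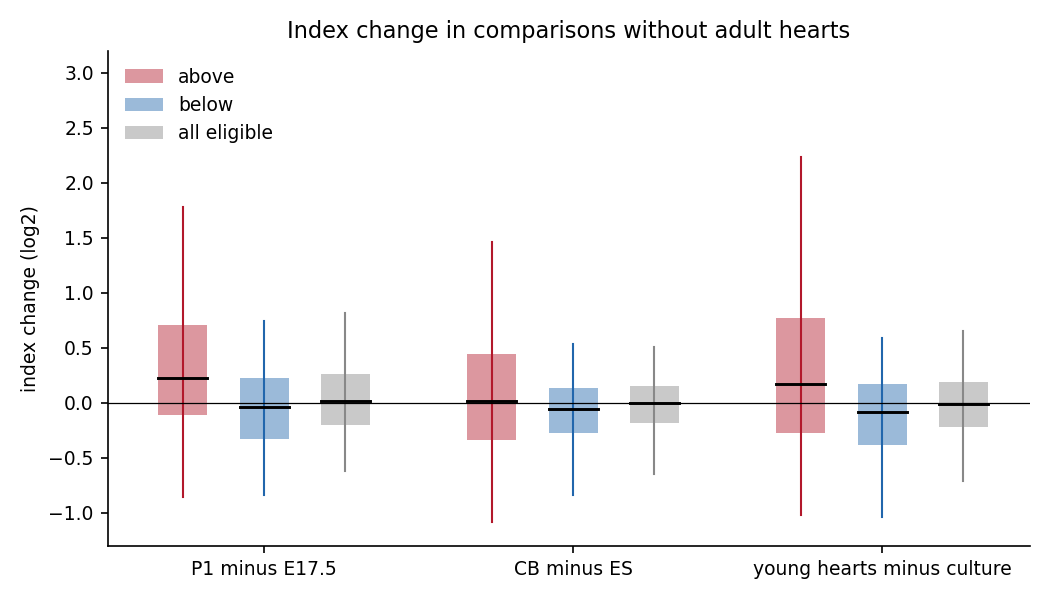
Index change (y axis, log2) in the 3 comparisons without adult hearts (x axis) for members above (red, n = 803), members below (blue, n = 1072) and all eligible probe sets (grey, n = 48049); boxes span the quartiles, black lines mark medians and thin lines run from the 5th to the 95th percentile. Medians for members above, members below and all were 0.22, -0.03 and 0.01 for P1 minus E17.5, and 0.17, -0.08 and -0.01 for young hearts minus culture.

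The members called in the young heart comparison included probe sets that already differed between culture and young hearts. In Fubp1, a single-stranded DNA and RNA binding protein, probe set 10496897 measured 4.99 to 6.06 on the 6 culture arrays, 9.11 to 10.35 on the 4 young heart arrays and 9.79 and 9.64 in adult hearts. Young and adult hearts overlapped, and only the index, through a lower gene level, set adult hearts apart. Its index was higher in young hearts than in culture by 5.36 with a standard error of 0.18 (limma, adjusted p = 4.52e-05). In Epha4, an ephrin receptor, probe set 10355896 measured 4.40 to 6.06 in culture, 7.61 to 8.89 in young hearts and 9.58 and 9.78 in adult hearts. The index change from culture to young hearts was 3.63 with a standard error of 0.14 (limma, adjusted p = 5.27e-05). For Cct6a, a subunit of the TRiC chaperonin, the index change was 3.69 (adjusted p = 0.00036 in limma), and for the arginine methyltransferase Prmt5 it was 2.53 (adjusted p = 0.000226 in limma).

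Against young hearts alone, the adult index differences of these 4 were 0.47 in Fubp1, 0.25 in Epha4, 0.27 in Cct6a and 0.75 in Prmt5. They were kept by the rule mainly for their distance from the cultures. The other 2 of the 6 lowest adjusted p-values were the Hk1 probe set 10369545 and the Gas5 probe set 10351032, both measured against another cluster. The index of Slc25a3 10371884 fell by 1.25 with a standard error of 0.10 (limma, adjusted p = 0.000887). Its signal stayed within 11.69 to 12.23 on these arrays, and the gene level rose by 1.01 (limma, adjusted p = 1.89e-05). The index of Tpm1 10594662 fell by 3.15 (limma, adjusted p = 0.000489) while the gene level rose by 1.87 (limma, adjusted p = 1.42e-07). The index of Acin1 10419841 rose by 2.38 (limma, adjusted p = 0.00609). All 3 indices kept their sign under quantile normalization. Of the 7 Pdlim5 members limma called 1 in this comparison, number 11 (10502471), whose index fell by 1.12 (adjusted p = 0.046). Its signal was 8.51 to 9.32 in culture and 8.72 to 10.58 in young hearts, and the Pdlim5 gene level rose by 2.11 (limma, adjusted p = 2.42e-07). The index of number 5 differed by 0.62 (limma, adjusted p = 0.272).

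At gene level, where changes were called at an adjusted p under 0.05 in limma over 19920 genes, the genes that hold members are set beside all eligible genes. From E17.5 to P1, 47 of the 1106 rose (4.25%) and 37 fell (3.35%), against 2.76% and 3.56% of all 3619 eligible genes and 2.08% and 3.05% of all genes tested. From ES cells to cardiac bodies 65 rose (5.88%) and 24 fell (2.17%), against 6.99% and 2.49% of eligible genes and 6.19% and 3.61% of all. Young hearts had 251 higher (22.7%) and 413 lower (37.3%) than culture, against 25.7% and 35.4% of eligible genes and 21.2% and 23.8% of all. The first 2 of these comparisons depended on single arrays. In each setting given next, the calls over all 19920 genes moved in the same direction as those in the 1106. From E17.5 to P1, 339 of the 1106 genes were called without P1 replicate 1, 28 without P1 replicate 2, 19 and 15 without E17.5 replicate 1 or 2, and 55 without either ES array. From ES cells to cardiac bodies, 23 and 27 were called without ES replicate 1 or 2, 23 and 49 without CB replicate 1 or 2, and 146 without either P1 array.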

How the data were processed

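The deposited files give RMA signals on a log2 scale for 12 arrays, as exon-level and gene-level sets; per the submitters' processing notes these were made with Affymetrix Power Tools, with versions and genome build not given in the sources used here. They were used without further normalization. Gene names came from the platform annotation, updated to current RefSeq symbols. Gene and exon sets were joined by group and replicate number. The members, the gene lists and the tests were chosen with earlier results of these data known.

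One linear model of all 6 groups, with no covariate, was run for the index and for the gene level (limma 3.58.1, R 4.3.3) over 48049 probe sets or 19920 genes, and p-values were adjusted after Benjamini and Hochberg. Calls needed an adjusted p under 0.05, and for the index a change of at least 1. The fit and the rule were tested on simulated data. Probe sets are named by these criteria: the 12 greatest differences on each side (1 a gene), genes with 3 or more members, members in the lists of splicing, sarcomere, calcium and splicing-regulator genes, up to 6 called members a comparison, and 3 on either side of each limit. Of the genes with 3 or more members, those named with values beyond these were picked after the values were seen. No coordinates or sequences of probe sets were used here. The main model did not pair arrays by replicate number. Differences between replicates 1 and 2 correlated between groups at -0.23 to 0.09 for the index, over 15 pairs of groups. At gene level they correlated at -0.18 to 0.29. Whether same-numbered arrays were processed together is not shown by these values.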

Additional observations from a re-analysis of the deposited data

Results flagged for a closer look

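Exon-level features without a gene symbol entered no comparison above. Among the 6221 of them with a mean signal of at least 7, both adult arrays lay outside the other 10 with a mean difference of 2 or more in 14.3% (892, 241 above and 651 below), against 3.17% for ES cells, the next highest group, and 1.41% for P1 hearts. Among eligible probe sets with a mean of at least 7, the signal itself set adult hearts apart by that much in 9.4% (3810 of 40550), and ES cells in 1.67%.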

How the results depend on the processing

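The count of members stayed within 1.5 times of 1875 under the median of the other probe sets as reference (2134), quantile normalization (1949), symbols as annotated (1675), a minimum on probe set signal (1738) and leaving out any array (1853 to 2461), of which at least 1536 were among the 1875. A gene level of at least 8 left 628, and of at least 6 gave 3674, of which the probe set moved more than the gene in 514 and 3039. Without a filter on gene level, 205421 probe sets were fitted, against 48049 with it, so the counts have unlike bases. Index calls were then 644 for cardiac bodies minus ES cells, 7234 for young hearts minus culture and 19942 for adult minus P1. For adult minus P1, 7440 were called with the filter. Adult minus P1 is the contrast the members were selected on, so its calls are background only and no test of them. Cardiac bodies minus ES cells gave 7 calls with the other probe sets as reference and, in an alternative chosen after seeing the data, 11 in genes with 1 transcript cluster. Restricted to the 3665 genes at least 7 on all arrays, gene-level calls were 398 from E17.5 to P1, 440 from ES cells to cardiac bodies and 2414 for young hearts minus culture. Leaving out 1 array at a time gave 0 to 124 index calls for P1 minus E17.5, 0 to 25 for cardiac bodies minus ES cells and 703 to 1450 for young hearts minus culture, and 303 to 3056 and 883 to 2539 gene-level calls in the first 2 of these comparisons. A replicate block gave 0, 18 and 928 index calls in the comparisons without adult hearts and 885, 1837 and 8808 gene-level calls, and moved no count by more than 1.5 times. Of 240 named members, the adult difference moved by more than the spread between replicates in 93 against E17.5 and P1 hearts only, 79 with the other probe sets as reference, 52 without either adult array and 8 with quantile normalization. In 11 it moved by more than 1.5 times without 1 adult array. A further 8 changed sign, all with the other probe sets as reference: Gas5 10351030 (0.392), 10351032 (1.212), 10351033 (0.082), 10351034 (0.755) and 10351040 (0.093), and Hk1 10369552 (-0.048), 10369553 (-0.117) and 10369566 (-0.065). The reference cluster of both symbols is not the one these probe sets are numbered under. With 2 arrays a group, a dim signal has no detection call here, so a member below may be at background in adult hearts, and a member above on the other arrays.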
